A study of Mus musculus with 42 samples.

Results

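The genes described here are the posterior patterning regulators of the Cdx family, genes of the Hox clusters and Hotairm1, an antisense non-coding RNA of the Hoxa cluster. A list of 9 genes was matched by symbol to the Ensembl identifiers of the expression tables: Hotairm1, Hoxa2, Hoxb1, Hoxb2, Hoxb4, Hoxd1, Cdx1, Cdx2 and Cdx4. Of the 9, 5 had a row among the 14296 genes tabulated (Hotairm1, Hoxb2, Cdx1, Cdx2 and Cdx4). Hoxa2, Hoxb1, Hoxb4 and Hoxd1 had no matching row and were not analysed here; the tables hold genes that exceeded 1 CPM (counts-per-million of a library's reads) in at least 2 samples, and whether these 4 genes fell short of that level was not seen. For comparison, 6 further genes of the 4 Hox clusters are described: Evx1, Evx1os, Hoxb9, Hoxc4, Hoxc13 and Hoxd13.

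The study followed W9.5 mouse embryonic stem cells (ESCs), a low-passage (P18) line with a 129X1/SvJ background, as they differentiated without a directing factor into embryoid bodies after leukaemia inhibitory factor was withdrawn. Cells were harvested every 6 h from 0 to 120 h in biological duplicate time courses, replicates A and B, which gives 21 time points and 42 stranded poly-A RNA libraries. All samples derive from this single line, no culture was given a patterning signal, and every embryoid body sample is a mixture of cell types, so that fewer cells of a type and less RNA per cell cannot be told apart.

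Hox genes encode homeodomain transcription factors that give cells their position along the head to tail axis, and the order of the genes within a cluster follows the order in which they are switched on. Cdx genes encode related homeodomain factors of the ParaHox family that act upstream of Hox genes in the posterior embryo, where Wnt, Fgf and retinoic acid signals meet. Cdx2 has a separate early role in the trophectoderm, the outer lineage of the blastocyst, and Hotairm1 is known as a regulator of the 3′ end of the Hoxa cluster.

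The whole reads behind the tabulated log2 CPM values were recovered for each library. Totals over all tabulated genes ran from 10120972 to 51652434 reads, and 3 reads corresponded to 0.0571 to 0.316 CPM. The members were scarce in every library: the median number of reads was 8.5 for Hotairm1, 7.5 for Hoxb2, 18.5 for Cdx1, 20.5 for Cdx2 and 9.5 for Cdx4. The highest counts were 47, 105, 176, 365 and 65 reads in the same order. Levels near 3 reads are therefore read as close to the counting floor, and intervals on read ratios cover counting error only. At 0 h the ESC markers Pou5f1, Nanog, Sox2, Zfp42, Esrrb, Klf4 and Fgf4 lay between 7.95 and 9.98 log2 CPM on average. Dppa3, also a listed ESC marker, was at 0.76 log2 CPM (36 and 44 reads). The 6 fibroblast markers present summed to 24.2 to 28.0 CPM, with Thy1 at 456 and 533 reads and Col1a1 at 113 and 139. Among them, Col3a1 and Dcn were at 0 in both libraries.

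All 5 members changed over the course in limma's moderated F-test against 0 h, with Benjamini-Hochberg adjusted p-values over all genes of 3.97e-07 for Hotairm1, 4.35e-08 for Hoxb2, 7.1e-06 for Cdx1, 5.96e-08 for Cdx2 and 2.26e-09 for Cdx4. At the threshold of 0.0001 that was used throughout, 74.6% of all genes also changed, so a change at some time was the rule for genes in these tables. With the voom precision weights the Cdx1 and Cdx2 calls were lost (adjusted p = 0.00288 and 0.0177, limma). The mean of both libraries was highest at 0 h for Cdx1, 30 h for Cdx4, 96 h for Cdx2, 102 h for Hotairm1 and 108 h for Hoxb2. Cdx2 had already risen at 6 h. These hours are a description without a test, and single replicates differed. Cdx1 was highest at 96 h in replicate B, and in replicate A Cdx4 was highest at 36 h and Hotairm1 and Cdx2 at 108 h.

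**Figure D1:**
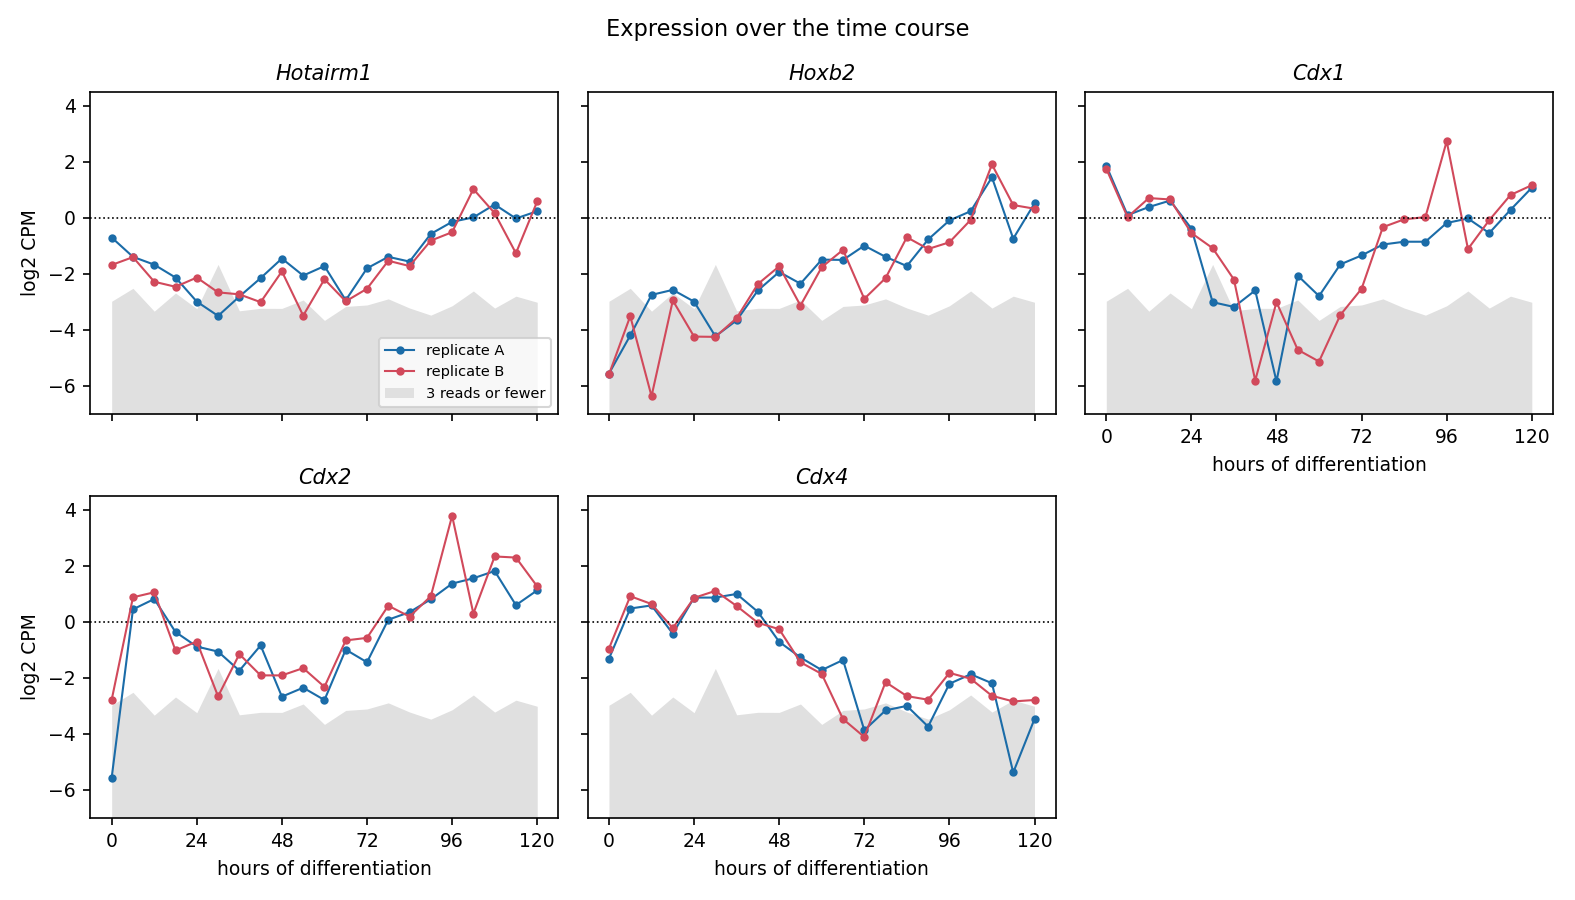
Level of each member in log2 CPM (vertical axis) against hours of differentiation (horizontal axis), with 1 point per library, replicate A in blue and replicate B in red. The dotted line marks 1 CPM and the grey area the level of 3 reads or fewer in the shallower library of each time point. Cdx2 rises between 0 and 6 h, Cdx4 falls to the grey area at 72 h, Cdx1 dips around 48 h, and Hotairm1 and Hoxb2 are highest after 96 h.

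Per kilobase of annotated exon, which allows levels of different genes to be set side by side, Cdx1 was the most abundant member in ESCs, with 2.08 and 1.92 CPM per kilobase in replicates A and B at 0 h. Hotairm1 followed with 0.579 and 0.283, Cdx4 with 0.194 and 0.254, and Cdx2 with 0.0 and 0.0548, while Hoxb2 had no read. The values of Hotairm1 and Cdx4 did not overlap, but they rest on 7 to 14 reads per library. At 120 h Hotairm1 had 1.13 and 1.45 CPM per kilobase and Cdx1 1.2 and 1.27, which overlapped, Cdx2 had 0.96 and 1.06, Hoxb2 0.404 and 0.356 and Cdx4 0.0369 and 0.0632. Cdx4, above Cdx2 and Hoxb2 at 0 h, was the lowest member at 120 h.

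Cdx2 encodes the caudal-related factor best known for trophectoderm, posterior axis and intestinal identity. The gene (ENSMUSG00000029646.3) lies on the minus strand at chr5:147300805-147307270 (GRCm38). It had 0 and 3 reads at 0 h, 37 and 31 at 6 h and 53 and 86 at 12 h, in replicates A and B. The 4 libraries of 6 and 12 h lay between 0.45 and 1.06 log2 CPM, above both libraries of 0 h (-5.56 and -2.78). How many of all genes had such a separation was not counted. The change from 0 to 6 h was 4.83 on the log2 scale (SE 0.725, limma adjusted p = 2.57e-06, higher in both replicates), or a read ratio of 24.2 (95% exact counting interval 7.94 to 120.0). Cdx2 was the only member among 5 called over this step, against 11.8% of all genes called higher. Of all genes, 4.35% were called in either direction from 6 to 12 h and at most 2.04% over any later step of 6 h. The Cdx2 call was the only one among the 100 member steps of 6 h. The call was lost without replicate A at 0 h (3.45, adjusted p = 0.000578, limma), without replicate B at 6 h (4.62, adjusted p = 0.000142), on the log2(CPM + 1) scale (1.27, adjusted p = 0.0057) and with precision weights (4.79, adjusted p = 0.0151). The range of its adjusted p over all alternatives was 3.31e-07 to 0.0151.

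The early rise of Cdx2 was followed by a decline and a later rise. From 24 to 42 h the 8 libraries held 1 to 19 reads (median 13; median level -1.11 log2 CPM), and at 48 h 4 and 7 reads. From 12 to 48 h the read ratio was 0.0996 (0.0486 to 0.184). This interval covers counting error only and makes no allowance for the choice of these hours. Both libraries stayed above 1 CPM from 78 h on, and the 10 libraries of 96 to 120 h lay between 0.3 and 3.79 log2 CPM (median 1.47). The means were highest at 96 h (2.58 ± 1.71, SD, n = 2) and 108 h (2.08 ± 0.37), whose libraries overlapped. At 120 h Cdx2 had 60 and 58 reads, 5.38 above 0 h on the log2 scale (SE 0.725, limma adjusted p = 4.96e-07), with a read ratio of 36.2 (12.1 to 178.0). Of the 5 members, 2 (Hoxb2 and Cdx2) were called higher at 120 h than at 0 h, against 12.9% of all genes. Of the 5, 0 were called lower, against 10.1%. At an unadjusted p below 0.05 (limma), 4 members differed, Cdx4 being lower and the others higher. The share of all genes at that level was not counted. The median change of the 5 was 1.61, beside -0.02 over all genes. The Cdx2 call was lost without replicate A at 0 h (3.99, adjusted p = 0.000127, limma), on the log2(CPM + 1) scale (1.63, adjusted p = 0.000715) and with precision weights (5.36, adjusted p = 0.00648).

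Gsx1, the ParaHox gene next to Cdx2 in the tables (109858 bp away), had a larger early pulse, with 0 and 1 reads at 0 h and 161 and 106 reads at 6 h, and returned to 1 and 4 reads at 120 h. Of the ParaHox partners listed (Gsx1, Gsx2, Pdx1), 1 was present, and its change from 0 to 120 h was 1.47 (SE 0.835, limma adjusted p = 0.145). Over the 21 means its correlation with Cdx2 was -0.17.

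Cdx4, which acts with Cdx2 in the posterior embryo, occupies the plus strand at chrX:103321398-103330592 (ENSMUSG00000031326.2). It had 9 and 12 reads at 0 h, 38 and 32 at 6 h, and 63 and 44 at 36 h. The 14 libraries from 6 to 42 h lay between -0.42 and 1.11 log2 CPM (median 0.62). All were above both 0 h libraries (-1.31 and -0.95), a separation whose share among all genes was not counted. The step from 0 to 6 h was 1.83 (SE 0.606, limma adjusted p = 0.0113) and did not pass the threshold; it passed on the log2(CPM + 1) scale, as did the change from 0 to 24 h, which also passed with precision weights. From 48 h on the level declined, from 17 and 23 reads at 48 h to 2 and 1 at 72 h, a change of -3.5 (SE 0.606, adjusted p = 5.03e-05). This was the only call among the 25 member steps of 24 h, against 3.78% of all genes called lower from 48 to 72 h. Over the daily steps 1.94% to 22.7% of all genes were called in either direction. Leaving out any of its 4 libraries ended the Cdx4 call (-3.73 to -3.28).

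Cdx4 did not recover with the other Cdx genes. The 14 libraries from 84 to 120 h held 0 to 8 reads (median 4.0), and at 120 h it had 2 and 3 reads, -2.0 from 0 h (SE 0.606, limma adjusted p = 0.00698, lower in both replicates), which did not pass the threshold. It passed after quantile normalization (-3.7, adjusted p = 8.98e-06). Cdx2 and Cdx4 were both above 1 CPM in all libraries of 6 and 12 h, and from 78 h on Cdx2 alone was. Their means over the 21 time points had a correlation of -0.36, given as a description of time points that share libraries.

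The promoters of Cdx2 and Cdx4 are shown because these were the members with a promoter entry that could be used. They are the bases before the gene start from RefSeq (GRCm38.p6; 2 of the 5 members), read 5′ to 3′ on the strand of the gene, with the octamer motif ATGCAAAT in capitals; the Cdx2 run ends at the annotated gene and spans chr5:147307271-147307499 on the minus strand (229 bases), and the Cdx4 run spans chrX:103321148-103321397 on the plus strand (250 bases).
Cdx2: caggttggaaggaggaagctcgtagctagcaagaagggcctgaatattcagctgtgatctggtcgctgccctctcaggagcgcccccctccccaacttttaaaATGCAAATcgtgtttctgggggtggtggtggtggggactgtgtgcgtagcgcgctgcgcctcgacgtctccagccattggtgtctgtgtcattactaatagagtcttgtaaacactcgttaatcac
Cdx4: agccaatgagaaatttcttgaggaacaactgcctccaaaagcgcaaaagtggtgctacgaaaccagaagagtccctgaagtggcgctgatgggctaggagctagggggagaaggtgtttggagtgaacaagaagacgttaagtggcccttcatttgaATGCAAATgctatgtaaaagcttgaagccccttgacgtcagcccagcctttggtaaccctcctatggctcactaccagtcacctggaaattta
The octamer, the sequence bound by Pou5f1 and other POU factors, began at position -147 from the RefSeq start of Cdx2 and at -93 from that of Cdx4. Searched on both strands, it was held by 435 of 27025 promoters of 250 bases (1.61%). This motif was chosen after the sequences had been seen, so its presence is a description of them. Evx1, which was also called higher from 0 to 6 h, held the motif at -126, and Evx1os, Hoxc4 and Hoxd13 held none. No other motif searched was found in the bases shown. These were the Cdx motif TTTATG, held by 11.1% of promoters, and the retinoid receptor motif AGGTCA, held by 13.8%. The TCF/LEF motif CTTTGA was held by 14% and the GC box GGGCGG by 32.9%. The TATA box TATAAA was held by 13% and the GATA motif AGATAA by 10.3%.

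Cdx1, a Wnt and retinoic acid target in the embryo, lies on the minus strand at chr18:61018862-61036199 (ENSMUSG00000024619.8) and had a trough in the middle of the course. It had 86 and 81 reads at 0 h (1.87 and 1.76 log2 CPM), 29 and 17 at 6 h, and 27 and 19 at 24 h. At 48 h the reads were 0 and 3, a read ratio to 0 h of 0.0151 (0.00308 to 0.0448), and the 8 libraries of 48 to 66 h held 0 to 8 reads. It then returned to 58 and 54 reads at 120 h, a ratio to 48 h of 41.0 (13.7 to 202.0). The hours of these ratios were chosen after the values were seen, and 0 h and 48 h had the highest and the lowest mean of Cdx1. Their intervals cover counting error only and make no allowance for that choice. No daily or 6 h step of Cdx1 passed the threshold; the step from 24 to 48 h was -3.96 (SE 1.03, limma adjusted p = 0.00379). The level at 120 h differed from that at 0 h by -0.69 (SE 1.03, adjusted p = 0.599), so a comparison of the endpoints alone did not show the trough.

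**Figure D2:**
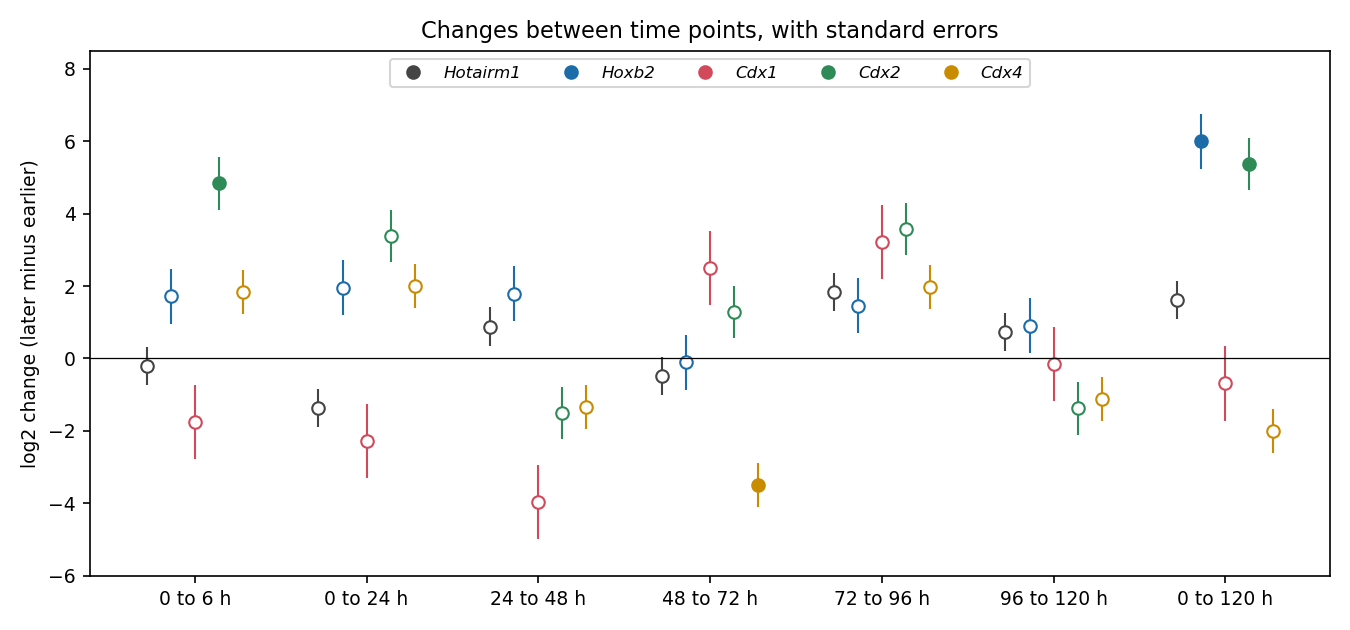
Log2 change of each member (vertical axis, later minus earlier, with its standard error) for the first 6 h, the 5 daily steps and the whole course (horizontal axis). Filled points passed the adjusted p threshold and open points did not. Filled points are Cdx2 from 0 to 6 h, Cdx4 from 48 to 72 h, and Hoxb2 and Cdx2 from 0 to 120 h.

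Hoxb2, a gene of hindbrain segments near the 3′ end of its cluster, lies on the plus strand at chr11:96350525-96354012 (ENSMUSG00000075588.5). It went from 0 reads in both libraries at 0 h to 7 and 8 reads at 48 h, 32 and 14 at 96 h, 93 and 105 at 108 h and 39 and 30 at 120 h. The 14 libraries of 6 to 42 h held 0 to 5 reads, below both libraries of 48 h. How many of all genes showed this was not counted. The change from 0 to 120 h was 6.0 (SE 0.762, limma adjusted p = 1.86e-07) and was called under each alternative run that retained the gene, with adjusted p from 2.34e-09 to 1.43e-05. Counted against 3 reads over the pair of libraries of 0 h, Hoxb2 was 21.2-fold higher at 120 h and 50.7-fold higher at 108 h. These values leave out the counting error of the later reads. The 95% exact counting interval of the level at 0 h reached up to 0.0596 of that at 120 h and 0.0245 of that at 108 h. Hoxb2 had its lowest mean at 0 h and its highest at 108 h. The values for 108 h make no allowance for that choice of hours. The peak at 108 h (1.68 ± 0.33 log2 CPM, SD, n = 2) lay above the libraries of 102 h (0.24 and -0.07) and 114 h (-0.74 and 0.46) in both replicates. The steps into and out of it were 1.6 and -1.82 (SE 0.762, limma adjusted p = 0.177 and 0.0912), below the threshold on the deposited scale and past it on the log2(CPM + 1) scale. Hoxb3os, an antisense gene annotated across Hoxb2 on the opposite strand, was not analysed here, and the sources used here do not say whether reads were counted by strand.

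Hotairm1 (ENSMUSG00000087658.2) lies on the plus strand at chr6:52156902-52162119. If strand was not used in counting, its reads cannot be told apart from those of genes on the opposite strand. Hotairm1 had 14 and 7 reads at 0 h, 2 and 1 at 30 h, 31 and 18 at 96 h, and 32 and 36 at 120 h. The 14 libraries of 6 to 42 h lay between -3.5 and -1.39 log2 CPM (median -2.37) and the 10 libraries of 96 to 120 h between -1.26 and 1.03 (median 0.1). These ranges did not overlap, but their edges (-1.39 and -1.26) were close. At 0 h replicate A (-0.7) lay within the late range and replicate B (-1.68) within the earlier one. The share of all genes with such a separation was not counted. Its lowest mean was at 30 h (-3.08 ± 0.59, SD, n = 2) and its highest at 102 h (0.53 ± 0.71), the first time point with both libraries above 1 CPM. The change from 0 to 120 h was 1.61 (SE 0.528, limma adjusted p = 0.0121, higher in both replicates) and did not pass the threshold, and the step from 72 to 96 h was 1.84 (SE 0.528, adjusted p = 0.0105). Over the 21 means its correlation with Hoxb2 was 0.67 (0.64 in replicate A and 0.61 in replicate B), over time points that share libraries.

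Of the 6 other genes of the Hox clusters, 5 changed over the course, where 74.6% of all genes did; the exception was Hoxb9 (limma adjusted p = 0.0113), and after quantile normalization the call of Hoxc4 was lost (adjusted p = 0.000563). From 0 to 120 h, 2 of the 6 were called higher, against 12.9% of all genes, and 0 lower, against 10.1% (median change 1.24). The 2 called were Evx1, an even-skipped homologue at the 5′ end of the Hoxa cluster, and its antisense neighbour Evx1os. Evx1 had 0 and 3 reads at 0 h and 111 and 78 at 120 h (6.03, SE 0.869, limma adjusted p = 1.45e-06). Evx1os had 0 reads in both libraries at 0 h and a change of 5.77 (SE 0.865, adjusted p = 2.65e-06). Counted against 3 reads at 0 h, Evx1os was 18.1-fold higher, and the 95% exact counting interval of its level at 0 h reached up to 0.0701 of that at 120 h. Both calls were lost with precision weights, and that of Evx1os also on the log2(CPM + 1) scale, after quantile normalization and without replicate A at 120 h. The call of Evx1 was lost without replicate A at 0 h.

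From 0 to 6 h 3 of these 6 genes were called higher, where 11.8% of all genes were. They were Evx1 by 6.02 (SE 0.869, limma adjusted p = 1.48e-06), Evx1os by 5.22 (SE 0.865, adjusted p = 1.04e-05) and Hoxd13 by 3.11 (SE 0.571, adjusted p = 4.21e-05). Without replicate A at 0 h all 3 calls were lost; that of Evx1 was also lost with precision weights, and that of Hoxd13 after quantile normalization or without either library of 6 h. The call of Evx1os was lost with precision weights, on the log2(CPM + 1) scale, after quantile normalization and without any of its 4 libraries. Evx1 had 0 to 9 reads in the 10 libraries of 18 to 42 h and was called higher again from 48 to 72 h (5.07, SE 0.869, adjusted p = 4.56e-05; 5.6% of all genes called higher). This call was lost with precision weights, on the log2(CPM + 1) scale, after quantile normalization, and without replicate A at 48 h or either library of 72 h. Its means had a correlation of 0.88 with those of Cdx2 over the 21 time points and of 0.98 with Evx1os, with which it overlaps on opposite strands. If strand was not used in counting, reads of the shared stretch cannot be told apart, and the part of this in the correlation and in the calls of both genes was not tested.

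Hoxd13, a 5′ gene of limb and tail, was high early, as Cdx4 was. Its 14 libraries of 6 to 42 h lay between -0.42 and 1.2 log2 CPM, above both libraries of 0 h (-3.24 and -1.89). Its 8 libraries of 102 to 120 h lay between -2.64 and -0.64. The share of all genes with such separations was not counted. From 0 to 24 h the change was 3.14 (SE 0.571, limma adjusted p = 4.32e-05), where 9.9% of all genes were called higher; this call was lost without replicate A at 0 h or either library of 24 h. The correlation of the means was 0.79 with Cdx4 and -0.49 with Cdx1. Hoxc4, like Cdx1, had a trough, with 60 reads over both libraries at 0 h, 9 at 48 h and 98 at 120 h, and the correlation of their means was 0.68. Hoxc13, the last gene at the 5′ end of its cluster, had its highest mean at 96 h (2.01 ± 1.26 log2 CPM, SD, n = 2), set by replicate B (2.9, against 1.12 in replicate A, which was highest at 84 h). It had a change from 0 to 120 h of 0.94 (SE 0.407, adjusted p = 0.0557), and that of Hoxb9 was 0.05 (SE 0.533, adjusted p = 0.95).

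**Figure D3:**
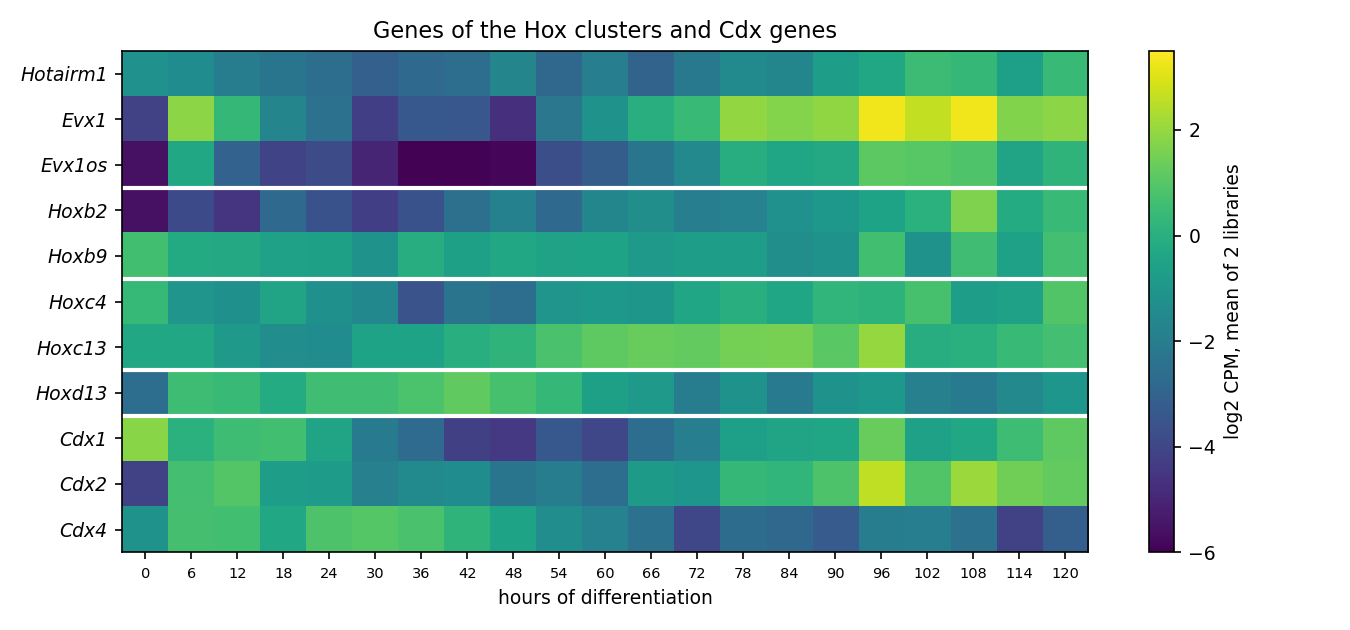
Mean log2 CPM of both libraries (colour) for the 11 genes at the 21 time points (horizontal axis, hours); rows are grouped by the Hoxa, Hoxb, Hoxc and Hoxd clusters and the Cdx genes, separated by white lines. Evx1, Evx1os, Cdx2 and Hoxd13 brighten at 6 h, Cdx1 and Hoxc4 darken in the middle of the course, and Evx1 and Cdx2 are brightest from 96 h on.

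The cultures lay apart in some members at 96 h. Cdx1 had 30 reads in replicate A and 176 in replicate B, a difference of 2.92 on the log2 scale that ranked 20 from the top of 14296 genes. Cdx2 had 89 and 365 reads (2.42, rank 65). Hotairm1 (-0.38) and Hoxb2 (-0.77) differed the other way, and Cdx4 had 7 reads in each library. At 102 h the sign was reversed for Cdx1 (-1.09) and Cdx2 (-1.27). The primitive streak genes T (2.13), Mixl1 (3.07) and Eomes (2.22) were also higher in replicate B at 96 h, as were Evx1 (1.92), Evx1os (2.4), Hoxb9 (1.81) and Hoxc13 (1.78). Their part in the Cdx values was not tested. All 5 members kept their calls over the course without both libraries of 96 h, and the calls from 0 to 120 h were 2 as before.

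**Figure D4:**
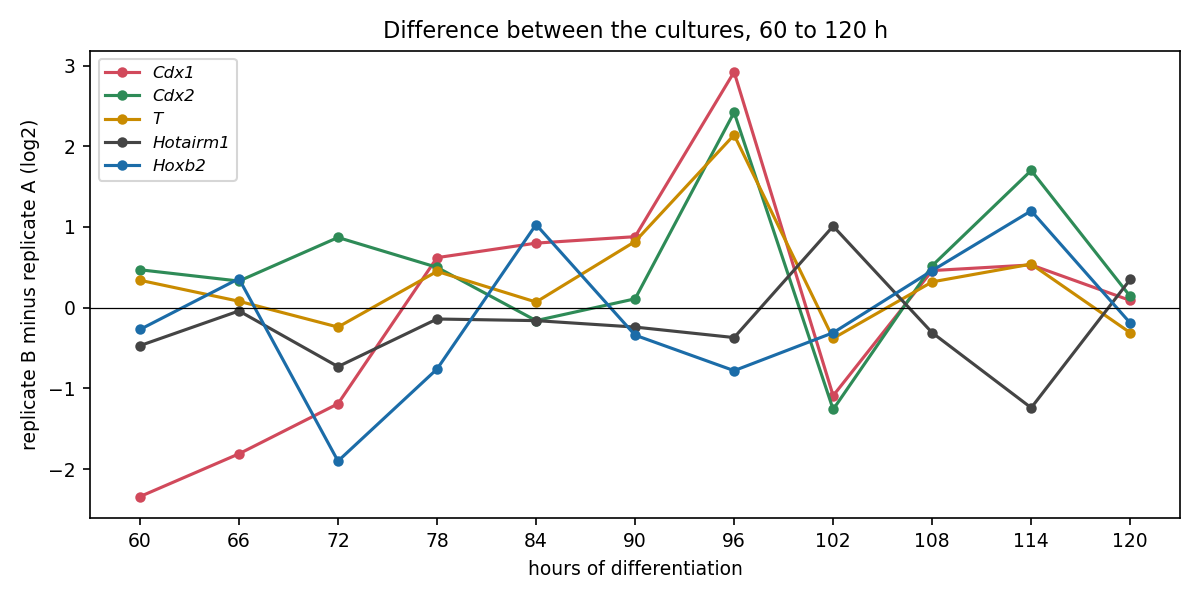
Difference between replicate B and replicate A (log2, vertical axis) from 60 to 120 h (horizontal axis) for Cdx1, Cdx2, the streak gene T, Hotairm1 and Hoxb2, with 1 point per time point. At 96 h Cdx1, Cdx2 and T are at 2.92, 2.42 and 2.13 while Hotairm1 and Hoxb2 are below 0.

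Genes that act with or upstream of the members were taken from lists and counted over the change from 0 to 120 h; together they held 53 genes beside the members and Hox cluster genes, of which 31 were called, where 23% of all genes were called in either direction (12.9% higher and 10.1% lower). Among TALE cofactors, which bind DNA together with Hox proteins, 5 of 10 rose and 1 fell (median 1.26). Meis2 (3.97, limma adjusted p = 4.08e-16), Pknox2 (3.72, adjusted p = 4.59e-13) and Meis3 (1.53, adjusted p = 4.18e-07) rose, while Meis1 (1.67, adjusted p = 0.000397) and Pbx4 (-0.74, adjusted p = 0.0049) did not pass. Pknox1 fell by 0.56 on the log2 scale (adjusted p = 3.74e-05). Pknox1, and below Rara, Fgf3 and Fgf4, were named after their values were seen, as the listed genes that fell.

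Of the 15 retinoic acid genes present among 18 listed, 5 rose and 1 fell (median 0.71). Cyp26a1, which degrades retinoic acid, went from 0 and 3 reads to 253 and 201 (7.3, limma adjusted p = 5.43e-09). Crabp2, a binding protein, rose by 3.38 (adjusted p = 3.93e-13), and Rdh10, which makes retinaldehyde, by 2.9 (adjusted p = 7.95e-15). The receptor Rara fell by 0.87 on the log2 scale (adjusted p = 9.61e-05), Aldh1a2, the main embryonic retinoic acid synthase, was at 1.76 (adjusted p = 0.000284) and Rarb at 1.61 (adjusted p = 0.136), which did not pass.

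Of 17 posterior growth zone genes present among 20 listed, 11 rose and 2 fell (median 2.41). Sp5 (6.82, limma adjusted p = 8.81e-07), Sp8 (6.73, adjusted p = 4.68e-16), T (6.61, adjusted p = 1.38e-12) and Wnt3 (5.77, adjusted p = 5.63e-12) rose most, Fgf3 fell by 2.27 and Fgf4 by 1.86 on the log2 scale (adjusted p = 7.15e-07 and 1.63e-14), and Fgf17 (0.79, adjusted p = 0.00224) and Nkx1-2 (2.32, adjusted p = 0.00347) did not pass. T, unlike Cdx2, was not higher at 6 h (-2.45 log2 CPM) than at 0 h (-1.65), and both were higher at 96 h. Among the 7 hindbrain genes present of 8 listed, 2 rose and 1 fell (median -0.11): Egr2 (5.01, adjusted p = 1.01e-05), a gene of the segments in which Hoxb2 is used, rose, Gbx2 fell by 2.77 on the log2 scale (adjusted p = 1.09e-08), and Kif5c (0.82, adjusted p = 0.00369) and Epha4 (-0.77, adjusted p = 0.000404) did not pass. Of the trunk and limb list 4 of 6 genes were present and all 4 rose (median 5.31), Evx1 among them; the others were Pax3 (6.89, adjusted p = 1.09e-07), Pax6 (4.58, adjusted p = 1.64e-10) and Sox9 (2.84, adjusted p = 1.54e-05).

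The levels of cell type markers are given beside those of the members. Of 10 trophoblast markers 7 were present, of which 4 rose and 1 fell by 120 h; Elf5, Tpbpa and Prl3d1 were not analysed here. The summed level of those present was 38.4 to 39.5 CPM at 0 h, 20.0 to 35.2 CPM from 6 to 42 h and 67.2 to 290.0 CPM from 78 to 120 h. The window of 6 to 42 h held both the early rise of Cdx2, at 6 and 12 h, and its decline from 18 h on. Gata3, a trophoblast factor, went from 0 and 4 reads at 0 h to 281 and 253 at 120 h. Its mean was already 0.15 log2 CPM at 6 h, from -3.99 at 0 h. The means of Krt7 (1.08 to 1.75) and Eomes (3.74 to 3.89) were also higher at 6 h than at 0 h. Those of Tfap2c (3.87 to 3.47), Hand1 (-1.77 to -2.63), Ascl2 (2.54 to 1.11) and Esx1 (1.47 to 1.03) were lower. Of the streak and mesoderm markers 4 of 6 were present and 3 rose, with a sum of 14 to 14.7 CPM at 0 h, 14.8 to 19.7 CPM from 6 to 42 h and 55.8 to 462.0 CPM from 78 to 120 h. All 4 neural markers rose, and their sum went from 14.4 to 17.7 CPM at 0 h to 87.5 to 355.0 CPM at 78 to 120 h. Of 9 primitive and visceral endoderm markers 5 were present and 2 rose (11.8 to 12.0 CPM at 0 h, 23.1 to 43.6 CPM from 78 to 120 h), and of 5 gut endoderm markers 2 were present and 1 rose (1.14 to 1.45 and 1.23 to 11.5 CPM). Of the 8 ESC markers 6 fell and 1 rose, with sums of 3650.0 to 3920.0 CPM and 1170.0 to 1870.0 CPM. Of 7 fibroblast markers 6 were present, of which 4 rose and 1 fell (24.2 to 28.0 and 9.16 to 102.0 CPM). The part of these cell types in the members' values was not tested.

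The genes whose courses were most like each member were ranked by the lower of the Pearson correlations in replicates A and B over 21 time points. For Cdx2 they were Fgfbp1 (0.86), Dapk3 (0.86) and Gata3 (0.84), and for Cdx4 they included Mcm5 (0.89) and Pigl (0.88). Those of Hotairm1 were Sidt2, Cd274 and Phc2 (0.87 each), those of Hoxb2 were Col2a1 (0.9), Lrrn4 (0.89) and Myl9 (0.89), and those of Cdx1 were Tex264 (0.86), Plekhh1 (0.84) and Zfp523 (0.84). The numbers of genes above 0.8 were 19 for Cdx2, 30 for Cdx1, 122 for Hotairm1, 214 for Cdx4 and 338 for Hoxb2. Replicates A and B of the same member correlated by 0.82, 0.72, 0.85, 0.89 and 0.86 in this order. Since the lower of both correlations was counted, a member whose replicates differ can have fewer such genes. The numbers are therefore no measure of how widely a course was shared. No member was among the 3 genes most like another member.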

How the data were processed

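RNA of 42 samples (21 time points, 2 replicates) was sequenced as stranded, paired-end 100 bp poly-A libraries. The authors used Trim Galore for trimming, TopHat2 with mm10 for alignment and HTSeq with GENCODE vM2 for counting, retained genes above 1 CPM in at least 2 samples, normalized library size with edgeR and applied voom from limma; versions and the strand setting of the counting are not given in the sources used here. The deposited values are log2 CPM with an offset of 0.5 reads. From the way the authors made these log2 values the whole reads of each library were recovered, within 2.91e-08 of a read, and voom on them returned the deposited log2 values within 5.51e-14. Of 14296 identifiers, 14177 were matched to symbols through GENCODE vM21 (GRCm38) and 119 were not; coordinates and exon lengths are from the same annotation.

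Changes were tested on the deposited log2 values with limma 3.58.1 (R 4.3.3; lmFit, eBayes with a trend) on a factor of 21 time points over all samples, with 21 residual degrees of freedom, Benjamini-Hochberg adjustment over all genes within each contrast, and an adjusted p below 0.0001. Python 3.11.15 was used for descriptions. Contrasts were 0 to 120 h, the 5 daily steps, the 20 steps of 6 h and an F-test against 0 h. The fit was tested on simulated data whose changed genes had higher mean levels than any member. Its outcome therefore does not cover genes as scarce as the members. Detection was counted as both libraries above 1 CPM. The planned edgeR test on recovered reads was not run, although whole reads had been recovered. The voom precision weights were added after seeing the data. Replicates A and B were not paired. Named genes were the members, other Hox cluster genes present, up to 4 genes a list with the largest called change (replicates of equal sign) and up to 2 without a call, and the 3 most similar genes per member; markers are named beyond this rule after their values were seen. Some genes and 1 planned description are not reported here. The members, lists and tests were chosen with earlier results of these data known. Depth limits the precision: a library of 10120972 reads places 3 reads at 0.316 CPM.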

Additional observations from a re-analysis of the deposited data

How the results depend on the processing

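In the fits over the course, over 0 to 120 h, over the daily steps and over the 6 h steps, 5, 2, 1 and 1 member calls were made, 2 of the other Hox cluster genes were called from 0 to 120 h, and 31 of the pathway list genes; the latter stayed within 25 to 41 under every alternative. On the log2(CPM + 1) scale the member calls were 1 from 0 to 120 h, 4 over the daily steps and 3 over the 6 h steps, and 1 of the other Hox genes was called. At an adjusted p below 0.05 they were 4, 10 and 3, and 3 of the other Hox genes were called. The shares of all genes called under the alternatives were not counted. With voom precision weights, chosen after seeing the data, 3 members were called over the course, 1 from 0 to 120 h, 2 over the daily steps and 0 over the 6 h steps (none of them at 0 to 6 h, where Cdx2 was called without weights), and 0 of the other Hox genes. Quantile normalization called 1 of the other Hox genes, and the filter at a mean of 0 log2 CPM, which retained Hoxc13 alone among these and none of the members, called 0 of them. The cause of these differences was not tested.

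Leaving out 1 library at a time gave 5 member calls over the course throughout, 1 to 2 from 0 to 120 h, 0 to 3 over the daily steps, 0 to 1 over the 6 h steps, 1 to 2 of the other Hox genes and 26 to 34 of the list genes. Without 0 h A the Cdx2 calls were lost (1 member from 0 to 120 h, 0 over 6 h steps) and 1 other Hox gene was called, as without 120 h A. Without 6 h B the 6 h steps held 0 calls, and without any library of 48 or 72 h the daily steps held 0. Without 96 h A the daily steps held 3 calls and without 96 h B or 0 h B 2, the added ones being those of Cdx2. No sign was reversed. With the replicate letter as a replicate block the numbers of calls were the same for the members (5, 2, 1 and 1) and the other Hox genes (2), and 33 of the list genes were called. Residuals of same-lettered samples correlated by 0.08 on average (210 pairs of time points, -0.474 to 0.598, with 99 over 0.1). Correlations of both signs cancel in this average, so it does not show that samples of a letter were unrelated. The letters were left out of the main fit. A natural spline with 5 df gave 5 calls over the course.

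At 2 CPM Hotairm1 and Cdx4 gave no time of first detection, and that of Cdx2 was 96 h; in replicate A alone that of Hoxb2 was 102 h. In replicate A alone the highest level was at 108 h for Hotairm1, 108 h for Cdx2 and 36 h for Cdx4, and in replicate B alone at 96 h for Cdx1. Of the 3 most similar genes, Spearman ranks shared 1 for Hotairm1, 0 for Hoxb2 and 0 for Cdx1, and ranks by the mean of the replicates 1 for Hotairm1, 0 for Hoxb2, 0 for Cdx1 and 1 for Cdx2. The edgeR test was not run. Depth limits all members, whose median was 7.5 to 20.5 reads a library.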
